A study of Mus musculus with 45 samples.

Results

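The genes described here are those of synaptic vesicles and of the machinery that releases them, in hippocampal RNA of 45 female mice. They were chosen by symbol: every protein-coding gene in the table that is a synaptotagmin (Syt), synapsin (Syn), syntaxin (Stx), syntaxin-binding protein (Stxbp), numbered Vamp, Sv2, complexin (Cplx), Rims or numbered Snap gene, together with Syp and Slc17a7. The rule gave 62 members of the 15897 genes measured: 16 Syt, 13 Stx, 7 Stxbp, 6 Vamp, 5 Snap, 4 Rims, 3 Cplx, 3 Sv2 and 3 Syn genes, plus Syp and Slc17a7. A further 5 protein-coding genes with matching symbols (Cplx4, Stx11, Stx19, Syt8 and Vamp9) were not analysed here. All 62 passed the authors' filter on low counts, which had been applied before the table was made. Many symbols match the rule without naming a release protein of neurons, so counts of members are not counts of synaptic release genes alone. Among them Snap91 encodes the clathrin assembly protein AP180, and Stx18 a syntaxin of the endoplasmic reticulum. Others, such as Stx4a, Snap29, Vamp8, Stxbp3 and Stxbp4, are described below with other membranes or tissues.

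At a synapse, vesicles filled with transmitter dock at the active zone, where Rims proteins organise the release site. The vesicle SNARE Vamp2 then pairs with the plasma membrane SNAREs Snap25 and Stx1a, under the control of complexins and other regulators, and a synaptotagmin such as Syt1 couples fusion to calcium. Slc17a7 loads glutamate into vesicles, and in the hippocampus it marks excitatory terminals, while Syp is the vesicle protein most often used to label synapses.

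The mice were C57Bl/6J animals of 4 genotypes, each on a standard chow (STD, 5% fat and 0% cholesterol) or a typical western diet (TWD, 21% fat, 0.15% cholesterol and 35% sucrose). The diet began at 7 months and ended at 13 months of age, when all mice were killed. AwTw mice carried neither transgene, A+Tw mice carried APPswe and PS1dE9 (APP/PS1) behind the mouse PrP promoter, AwT+ mice carried tau P301L behind the CaMKII promoter, and A+T+ mice carried both. Each group had 6 mice, except 5 A+Tw mice and 4 A+T+ mice on STD, which makes 21 mice on STD and 24 on TWD.

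Values are the authors' variance-stabilised expression values on a log2 scale, so a difference of 1 is close to a doubling of expression for well-expressed genes and is understated for low ones. Differences were tested with limma, and a gene is said to rise or fall only where its Benjamini-Hochberg adjusted p over all 15897 genes was under 0.05. App, of which the APP/PS1 transgene holds a chimeric copy, and Prnp, whose promoter drives it, separated the mice by label. Prnp was 13.28 to 13.98 in the 24 mice without it and 14.66 to 15.02 in the 21 with it, and App was 14.29 to 14.86 and 15.05 to 15.80. Mapt did not separate the tau labels (12.61 to 13.16 in 23 mice without and 12.59 to 13.40 in 22 mice with the transgene, adjusted p = 0.999), so mouse Mapt gives no check of that transgene. All 62 members, all 4 glutamatergic neuron markers and all 10 further neuronal markers were measured in every mouse. In bulk tissue, fewer cells of a type and less RNA per cell cannot be told apart. Markers of the choroid plexus, a secretory tissue of the ventricle, ran from 11.2 to 18.2 in summed level over the 45 mice.

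The proximal promoters of 4 members that moved with the diet are shown here, because 3 of them rose and 1 fell. They come from RefSeq on GRCm38.p6, reach from 250 bases before to 50 bases after the start of the gene, and carry in capitals each GC box (GGGCGG, searched on both strands). Syp lies at chrX:7638330-7638629 on the plus strand, Sv2a at chr3:96180977-96181276 on the plus strand, Stx1a at chr5:135023232-135023531 on the plus strand, and Sv2b, the first of 4 listed starts, at chr7:75309213-75309512 on the minus strand.
Syp: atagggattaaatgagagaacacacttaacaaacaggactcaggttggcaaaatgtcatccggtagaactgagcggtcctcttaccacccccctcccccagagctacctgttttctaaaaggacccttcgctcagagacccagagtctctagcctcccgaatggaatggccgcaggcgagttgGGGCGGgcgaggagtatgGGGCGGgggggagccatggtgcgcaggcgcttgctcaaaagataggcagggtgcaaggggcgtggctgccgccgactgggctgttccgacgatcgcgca
Sv2a: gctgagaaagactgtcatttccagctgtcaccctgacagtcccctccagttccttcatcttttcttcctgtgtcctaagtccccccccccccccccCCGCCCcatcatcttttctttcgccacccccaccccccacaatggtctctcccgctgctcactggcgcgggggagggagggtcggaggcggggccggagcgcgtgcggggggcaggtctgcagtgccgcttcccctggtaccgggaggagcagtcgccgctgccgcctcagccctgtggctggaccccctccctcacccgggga
Stx1a: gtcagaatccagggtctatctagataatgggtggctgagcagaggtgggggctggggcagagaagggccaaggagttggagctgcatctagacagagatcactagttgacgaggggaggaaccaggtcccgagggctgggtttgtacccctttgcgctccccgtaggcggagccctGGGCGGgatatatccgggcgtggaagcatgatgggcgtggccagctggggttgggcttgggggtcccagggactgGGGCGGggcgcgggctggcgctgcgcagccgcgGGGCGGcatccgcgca
Sv2b: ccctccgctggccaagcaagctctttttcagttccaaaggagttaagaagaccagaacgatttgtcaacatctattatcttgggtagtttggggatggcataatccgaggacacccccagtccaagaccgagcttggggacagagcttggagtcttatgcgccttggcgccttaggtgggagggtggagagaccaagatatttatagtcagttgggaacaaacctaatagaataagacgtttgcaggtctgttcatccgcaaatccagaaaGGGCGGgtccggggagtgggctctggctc
Promoters were found for 48 of the 62 members. A GC box stood in 68.9% of their 61 listed promoters and in 35.7% of all 32851 promoters, which include those of genes not measured here. The median GC content was 63.7% in the members' promoters and 52.7% in all. Its part in the GC box shares was not tested. The TATA box TATAAA stood in 6.56% of the members' promoters and in 13.6% of all. The cAMP response element TGACGTCA stood in 3.28% and 1.79%. Counted by gene, a GC box was in a promoter of all 7 matched risers and of 8 of 10 matched fallers. By the same count it was in 38 of the 48 matched members and 10324 of all 27025 genes. Counted by promoter, it was in 8 of the 14 promoters of the fallers (57.1%). These matches describe letters in a window and say nothing of binding.

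The first comparison asked what the western diet did to these genes irrespective of genotype. On TWD 10 members rose and 13 fell, so 23 of 62 moved, against 29.4% of all genes tested. Risers among all genes were 16% and fallers 13.4%. The median difference of the 62 members was -0.04 (log2) and that of all genes 0.00. Members that rose thus made up a share close to that of all genes and members that fell a larger one, which is a description with no test of the list.

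**Figure D1:**
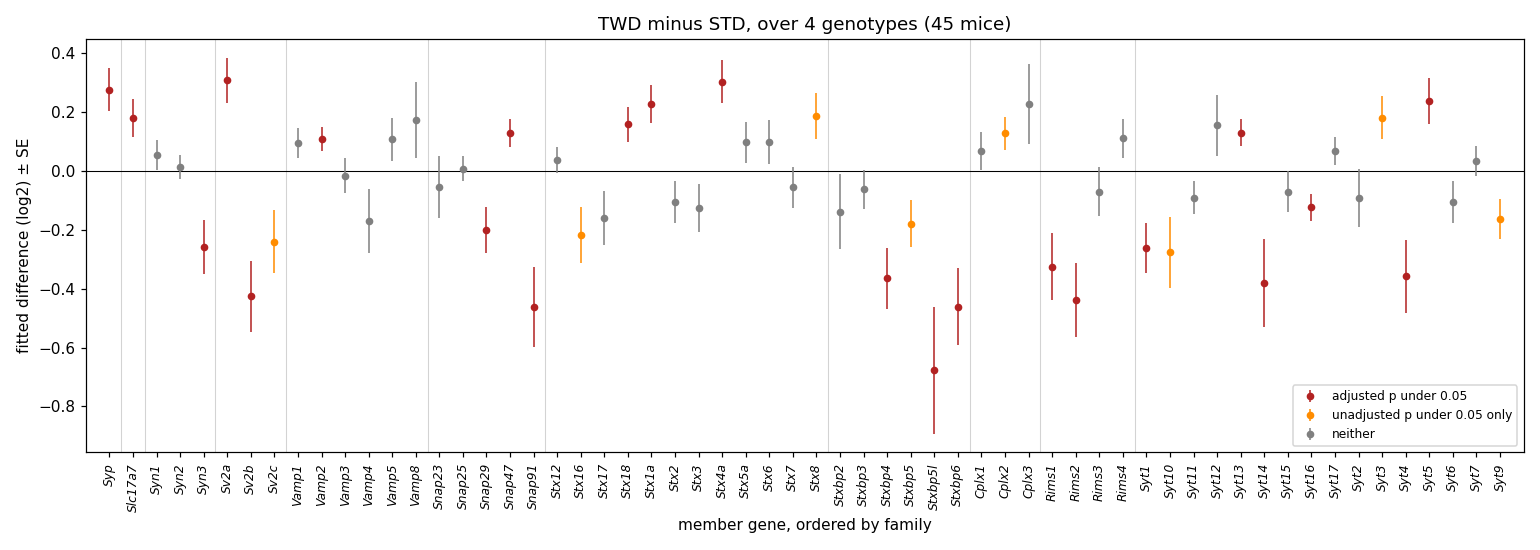
The fitted TWD minus STD difference (log2, ± SE, 45 mice) of 60 of the members, ordered by family; red marks an adjusted p under 0.05 and orange an unadjusted p under 0.05 only. Sv2a (0.31) and Syp (0.28) are among the risers and Stxbp5l (-0.68) and Rims2 (-0.44) among the fallers, and in the Sv2 family Sv2a rose while Sv2b fell (-0.43).

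Vesicle membrane proteins divided. Syp ran from 14.31 through a median of 14.65 to 15.29 in the 21 STD mice and from 14.49 through 14.88 to 15.34 in the 24 TWD mice. The ranges overlapped, yet 22 of 24 TWD mice lay above the STD median. Syp rose by 0.28 ± 0.07 (SE, adjusted p = 0.0157, limma). Sv2a, the vesicle glycoprotein bound by the antiseizure drug levetiracetam, ran 11.95, 12.46 and 13.24 (lowest, median, highest) on STD and 12.38, 12.77 and 13.27 on TWD. It rose by 0.31 ± 0.08 (adjusted p = 0.0157), with 21 of 24 TWD mice above the STD median. Its relative Sv2b went the other way: 11.66, 12.28 and 12.99 on STD and 10.94, 11.94 and 12.77 on TWD. Sv2b fell by 0.43 ± 0.12 (adjusted p = 0.0161), and 21 of 24 TWD mice lay below the STD median. The third family member, Sv2c, differed by -0.24 ± 0.11 and did not pass (adjusted p = 0.081). Slc17a7 ran 14.18, 14.48 and 14.99 on STD and 14.26, 14.67 and 15.01 on TWD and rose by 0.18 ± 0.06 (adjusted p = 0.0352). Of the synapsins, which tether vesicles in the reserve pool, Syn3 fell by 0.26 ± 0.09 (adjusted p = 0.0319), while Syn1 differed by 0.05 ± 0.05 and Syn2 by 0.01 ± 0.04, neither past the test.

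In the core fusion machinery Vamp2 and Stx1a rose. Vamp2 rose by 0.11 ± 0.04 (adjusted p = 0.0423), from 14.14, 14.38 and 14.75 on STD to 14.24, 14.45 and 14.75 on TWD. Stx1a rose by 0.23 ± 0.07 (adjusted p = 0.0168), and 19 of 24 TWD mice lay above the STD median of 10.72. Snap25, the partner of Stx1a at the plasma membrane, differed by 0.01 ± 0.04 and did not pass. It spanned 14.48 to 14.78 on STD and 14.14 to 14.90 on TWD around nearly equal medians of 14.63 and 14.65. Vamp1, the relative of Vamp2, differed by 0.10 ± 0.05 without passing. The complexins, which clamp and then assist the SNARE bundle, differed by 0.07 ± 0.06 (Cplx1), 0.13 ± 0.06 (Cplx2) and 0.23 ± 0.14 (Cplx3), and none passed.

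Syntaxins and SNAP relatives of other membranes also moved. Stx4a, a plasma membrane syntaxin used in many cell types, ran 8.88, 9.45 and 9.94 on STD and 9.33, 9.77 and 10.22 on TWD and rose by 0.30 ± 0.07 (adjusted p = 0.0157). Stx18 rose by 0.16 ± 0.06 (adjusted p = 0.0402) and Snap47 by 0.13 ± 0.05 (adjusted p = 0.0372). No syntaxin fell. Snap29, a SNARE of endosomes and autophagosomes, fell by 0.20 (adjusted p = 0.0483). Snap91, which assembles clathrin on retrieved vesicle membrane, ran 11.08, 12.13 and 12.81 on STD and 10.64, 11.80 and 12.37 on TWD. It fell by 0.46 ± 0.14 (adjusted p = 0.0179), and 20 of 24 TWD mice lay below the STD median.

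**Figure D2:**
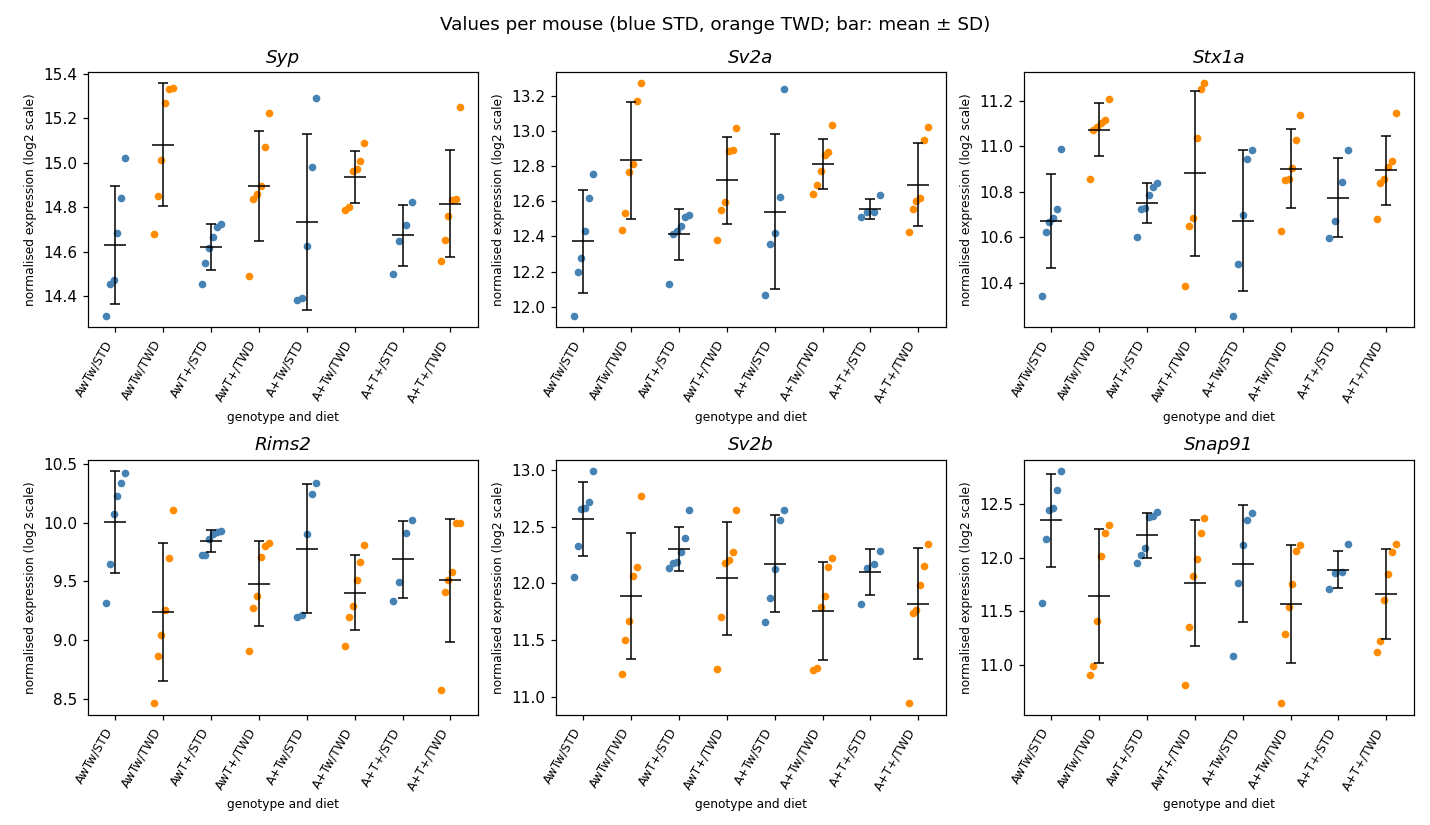
Expression (log2 scale) of Syp, Sv2a, Stx1a, Rims2, Sv2b and Snap91 in each mouse of the 8 groups, with mean ± SD; blue is STD and orange TWD. In AwTw mice Syp has a mean of 14.63 on STD and 15.08 on TWD, and Rims2 10.00 and 9.24, and the ranges of the diets overlap in both genes.

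Of the 7 syntaxin-binding proteins, regulators of SNARE assembly, 3 fell and none rose, and of the 4 Rims genes 2 fell and none rose. On GRCm38, Stxbp5l lies at chr16:37114942-37384962, Stxbp6 at chr12:44852484-45074709, Rims2 at chr15:39198261-39684372 and Snap91 at chr9:86765923-86880654. Stxbp5l, or tomosyn-2, which competes for SNAREs, had the widest spread: 5.96, 8.31 and 8.93 on STD and 5.82, 7.61 and 8.50 on TWD. It fell by 0.68 ± 0.22 (adjusted p = 0.0221). Stxbp6, or amisyn, ran 9.32, 10.01 and 10.74 on STD and 8.64, 9.62 and 10.51 on TWD and fell by 0.46 ± 0.13 (adjusted p = 0.0162). Stxbp4, which binds Stx4 in fat and muscle cells, fell by 0.36 ± 0.10 (adjusted p = 0.0165), and 22 of 24 TWD mice lay below the STD median of 8.37. Rims2 ran 9.20, 9.91 and 10.42 on STD and 8.46, 9.46 and 10.11 on TWD and fell by 0.44 ± 0.13 (adjusted p = 0.0166). Rims1 fell by 0.32 ± 0.11 (adjusted p = 0.0307). Rims3 and Rims4, short forms, differed by -0.07 and 0.11 and did not pass.

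Among the 16 synaptotagmins 2 rose and 4 fell. Syt5 rose by 0.24 ± 0.08 (adjusted p = 0.0252), and Syt13, which lacks calcium-binding residues, by 0.13 ± 0.04 (adjusted p = 0.0291). Syt1, the fast calcium sensor of hippocampal release, ran 13.77, 14.20 and 14.55 on STD and 13.16, 13.97 and 14.43 on TWD and fell by 0.26 ± 0.09 (adjusted p = 0.0242). Syt4 fell by 0.36 ± 0.12 (adjusted p = 0.0307), Syt14 by 0.38 ± 0.15 (adjusted p = 0.0486) and Syt16 by 0.12 ± 0.05 (adjusted p = 0.0428). Syt2, the fast sensor of inhibitory and brainstem terminals, and Syt7, the slow sensor, differed by -0.09 ± 0.10 and 0.03 ± 0.05 and did not pass.

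Several measures moved with these differences. Transcripts of the risers had a median length of 2524 bases and a GC content of 53.6%, and those of the fallers 4820 bases and 45.3%. The members that did neither had 3623 bases and 51.1%. Over all genes that rose or fell with the diet the GC medians were 54.4% and 44.4%. After trends with length and GC content were removed, 6 members rose and 5 fell, and 2134 of all 15897 genes passed. The largest component of variation between mice that group and batch left over held 41.3% of that variation over all genes and 53.8% over the members. Scored in every mouse, it ran from -1.95 through a median of -0.51 to 1.23 on STD and from -1.24 through 0.26 to 2.42 on TWD. On the corresponding component of the members alone all 10 risers loaded one way and all 13 fallers the other. Among all members 28 loaded the way of the risers and 34 the way of the fallers. No such count is given for all genes that rose or fell, so this split is not shown to be particular to the members. With the score of each mouse as a covariate no gene passed in limma, members included. At an unadjusted p under 0.05 there were 3 members and 1281 of all 15897 genes. In that fit Syp differed by 0.08, Sv2a by 0.13 and Rims2 by -0.07. What sets this component was not tested.

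**Figure D3:**
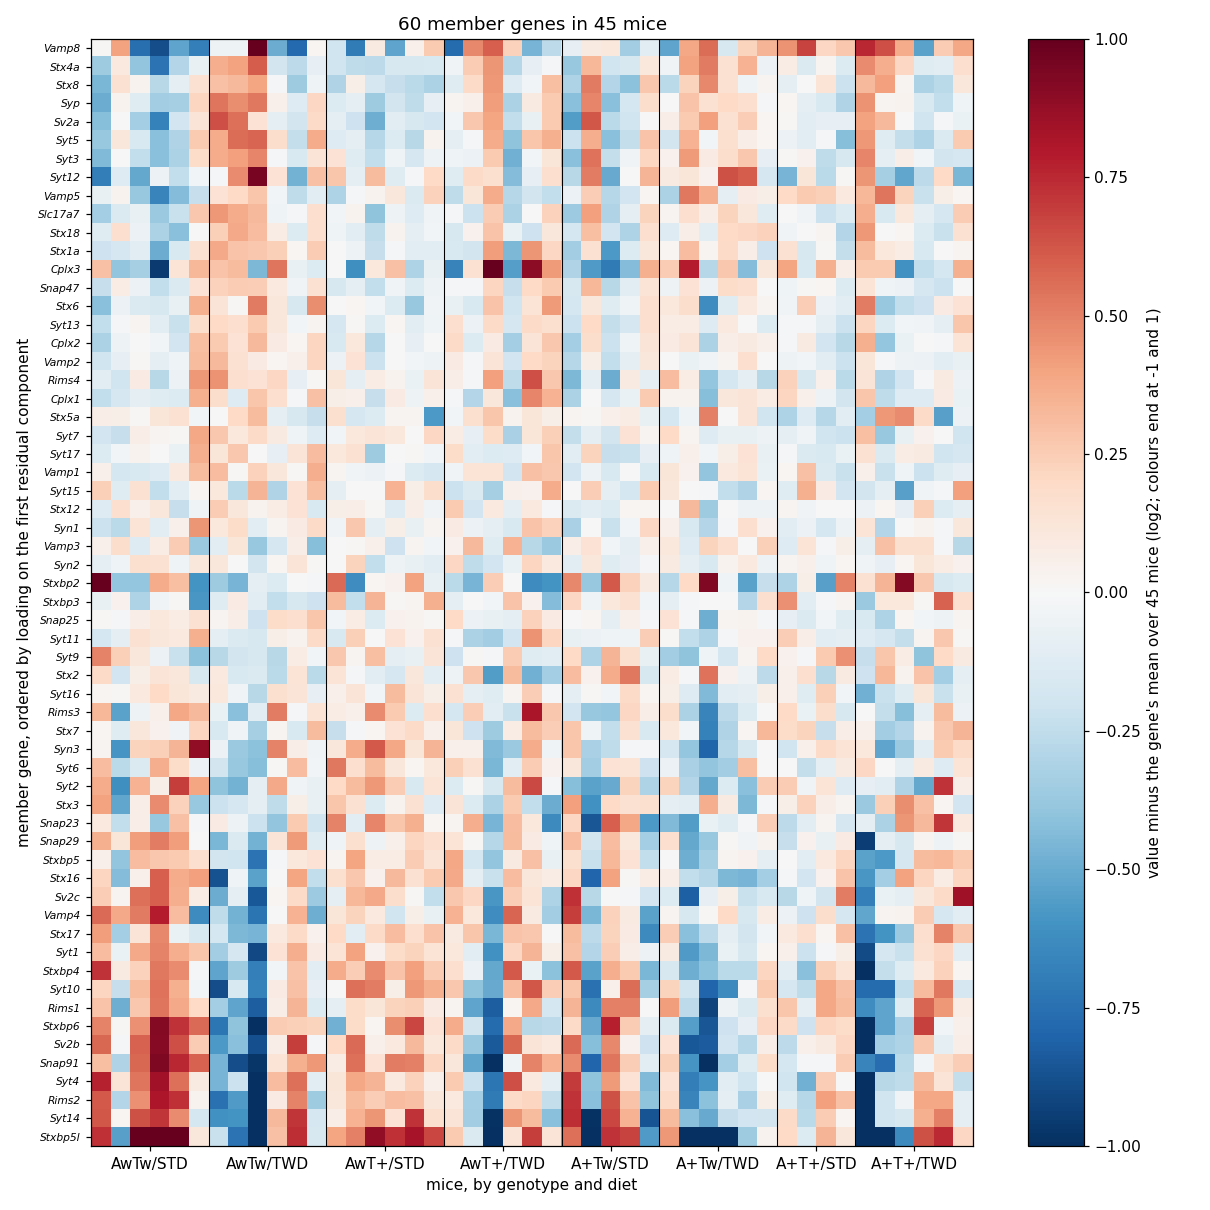
Each row is 1 of 60 member genes, ordered by its loading on the first residual component of the members, and each column a mouse; colour is the value minus the gene's mean (log2). Within single mice of either diet, genes at the top such as Syp and Sv2a and genes at the bottom such as Stxbp5l and Rims2 deviate in opposite directions.

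The batches given in the labels differed as well. They also held different shares of the genotypes: each AwTw group had 2 mice in batch 0 and 4 in batch 1. A+Tw/STD had 1 and 4, while A+Tw/TWD and A+T+/TWD each had 4 and 2. The part of genotype in the differences between batches was not tested. In batch 0 (8 STD and 12 TWD mice) no gene passed in limma, members included. At an unadjusted p under 0.05 there were 3 members and 882 of all 15897 genes. All 10 risers and all 13 fallers nonetheless kept their sign there, with medians of 0.13 and -0.11. In batch 1 (13 STD and 12 TWD mice) 13 members rose and 16 fell, where 6498 of all 15897 genes passed. The 23 members called over all mice had medians of 0.27 and -0.60 in batch 1. Syp differed by 0.17 ± 0.07 in batch 0 and 0.39 ± 0.12 in batch 1, and Sv2b by -0.11 ± 0.11 and -0.70 ± 0.18. The score also lay further apart in batch 1, with medians of -0.87 on STD and 0.85 on TWD, than in batch 0, with -0.16 and 0.16. Without the 12 AwTw mice no gene passed, members included. At an unadjusted p under 0.05 there were 18 members and 3581 of all genes. All 23 kept their sign, again in mice that had helped to call them. When single mice were left out, the 23 calls became 12 without AwTw/TWD replicate 3 or AwT+/TWD replicate 3, 14 without AwTw/TWD replicate 2 or A+T+/TWD replicate 1, and 15 without A+Tw/STD replicate 1, A+Tw/STD replicate 3 or AwTw/STD replicate 4. No sign of the 23 changed, and 12 of the 23 genes, Syp, Sv2a, Stx1a, Stx4a, Syt5, Sv2b, Rims2, Snap91, Stxbp4, Stxbp5l, Stxbp6 and Syt1, passed whichever mouse was left out. Over all genes the 4678 calls became 2768 without AwTw/TWD replicate 3 and 2856 without AwT+/TWD replicate 3.

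**Figure D4:**
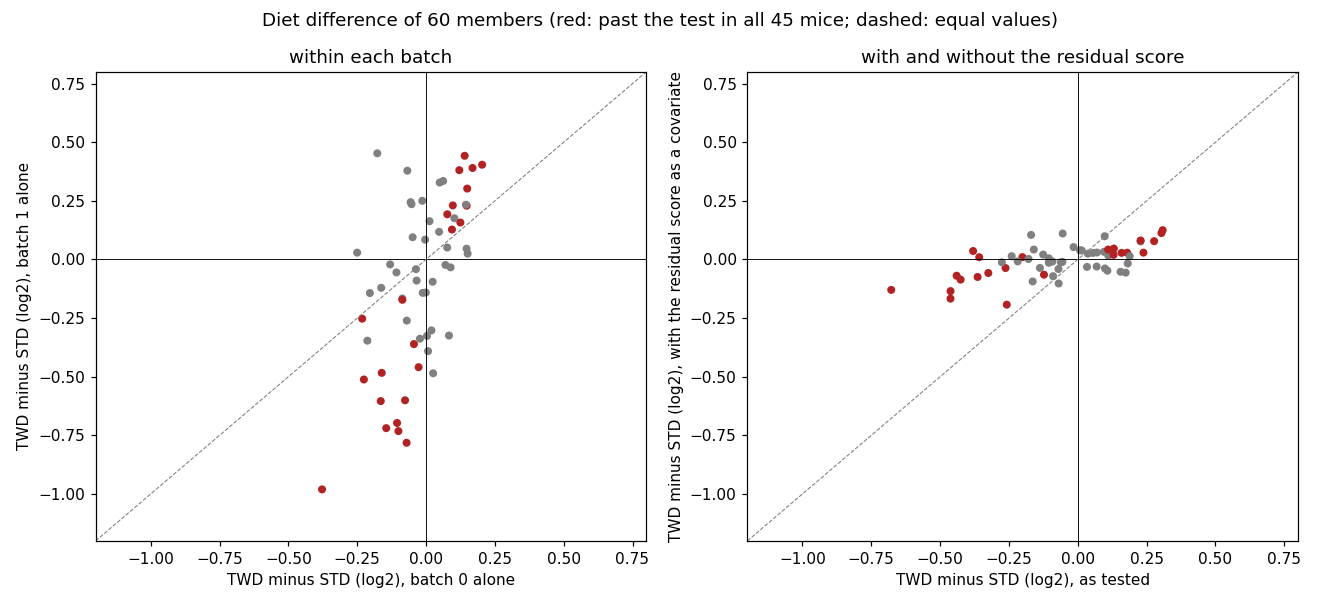
Diet differences (TWD minus STD, log2) of 60 members in batch 0 against batch 1, and as tested against the fit with the residual score; red points passed the test in all 45 mice. Red points keep their sign in both batches but are larger in batch 1, and with the score as a covariate they lie close to 0.

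Cell type markers shifted too. Of 4 glutamatergic neuron markers (Slc17a7 among them) 3 rose on TWD and none fell, and their summed level ran from 16.4 through 16.8 to 17.3 on STD and from 16.3 through 16.8 to 17.2 on TWD. Of 4 GABA neuron markers none rose and 2 fell, with summed levels of 13.1, 13.5 and 13.9 on STD and 12.4, 13.4 and 13.7 on TWD. Of 10 pan-neuronal markers that are no members, 3 rose and none fell. Among 8 oligodendrocyte markers 4 rose, and among 8 microglia markers 4 rose and 1 fell. Of 8 astrocyte markers 2 rose and 3 fell, and of 6 endothelial and of 6 thalamus and habenula markers 1 rose and 1 fell in each list. None of the 10 choroid plexus markers passed in limma (1 at an unadjusted p under 0.05), but all 10 differences were negative, with a median of -0.54. Their summed level ran 11.6, 16.3 and 17.4 on STD and 11.2, 16.1 and 18.2 on TWD. The part of these shifts in the members' differences was not tested.

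A wider list took in 62 other release and vesicle genes, such as clathrin adaptors, vesicular pumps and Rab proteins. Of these 18 rose (16% of all genes rose) and 10 fell (13.4% of all genes fell) on TWD, with no test of the list. By smallest p the first risers were Ap2m1 (0.23), Ap2s1 (0.31) and Ap2a1 (0.32), all subunits of the AP-2 adaptor that sorts vesicle cargo for retrieval. The first fallers were Slc17a8 (-0.41), the glutamate transporter VGLUT3, Atp6v1a (-0.46), a subunit of the vesicular proton pump, and the vesicle GTPase Rab3c (-0.35).

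The design also asked whether the diet acted in each genotype. In AwTw mice 4 members rose (6.01% of all genes rose) and 2 fell (3.34% of all genes fell), so 6 of 62 moved, against 9.35% of all genes. Syp ran 14.31, 14.58 and 15.02 in the 6 STD mice and 14.68, 15.14 and 15.34 in the 6 TWD mice. Stx1a ran 10.34, 10.67 and 10.99 on STD and 10.86, 11.09 and 11.21 on TWD. Sv2a ran 11.95, 12.36 and 12.75, then 12.43, 12.79 and 13.27, and Stx4a 8.88, 9.29 and 9.71, then 9.35, 9.75 and 10.22. The 2 diets overlapped in all 4 genes. Syp rose by 0.45 ± 0.14, Stx1a by 0.40 ± 0.13, Sv2a by 0.46 ± 0.15 and Stx4a by 0.43 ± 0.14, each with an adjusted p of 0.0498 in limma. Stxbp6 ran 9.83, 10.35 and 10.74 on STD and 8.64, 9.73 and 10.07 on TWD, and Rims2 9.32, 10.15 and 10.42, then 8.46, 9.15 and 10.11. Stxbp6 fell by 0.79 ± 0.25 and Rims2 by 0.77 ± 0.24, both again at 0.0498. These calls sat at the threshold: leaving out 1 mouse, of any group, gave 0 members in 32 of 45 cases and 10 to 25 in the other 13, with 25 without AwTw/STD replicate 2 and 24 without AwTw/TWD replicate 5. Over all genes 4590 passed without the former mouse and 6072 without the latter, against 1487 with all mice. Slc17a7 differed by 0.35 ± 0.12 (adjusted p = 0.052).

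In the transgenic genotypes no member passed in limma, nor did any other gene (0% called in each). In AwT+ mice 2 members had an unadjusted p under 0.05 (7.44% of all genes), Snap47 (0.19 ± 0.09) and Syn3 (-0.38 ± 0.18), with Sv2a next (0.30 ± 0.15). In A+Tw mice 0 members reached that level (4.43% of all genes), and the smallest p values belonged to Stx4a (0.31 ± 0.16), Sv2b (-0.46 ± 0.25) and Sv2a (0.29 ± 0.16). In A+T+ mice 1 did (2.57% of all genes), Syt16 (-0.21 ± 0.10), followed by Stx5a (0.23 ± 0.15) and Snap23 (0.33 ± 0.22). The genes that moved over all genotypes kept their direction in these smaller comparisons, which supply part of that same estimate. The 10 risers were all higher on TWD in AwT+ mice (median 0.17) and likewise in A+Tw mice (median 0.12). In A+T+ mice 9 of them were higher (median 0.13), and in AwTw mice the median was 0.38. All 13 fallers were lower in each, with medians of -0.31, -0.30 and -0.20 against -0.60.

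Whether the diet difference itself differed from that in AwTw mice was tested as an interaction. No member passed in limma in any of the 3 contrasts, nor did any gene (0% called in each). At an unadjusted p under 0.05 there were 3 members for AwT+ (4.02% of all genes), 0 for A+Tw (2.21%) and 1 for A+T+ (6.3%). For Syp, which rose by 0.45 in AwTw mice, the diet difference was 0.27 in AwT+ mice, a departure of -0.18 ± 0.20. It was 0.20 in A+Tw mice (departure -0.24 ± 0.20), and 0.14 in mice with both transgenes (departure -0.31 ± 0.21). For the AwT+ contrast the smallest p values were those of Syt12 (-0.62 ± 0.27), Vamp5 (-0.41 ± 0.20) and Vamp4 (0.58 ± 0.28). For A+Tw they were those of Vamp4 (0.57 ± 0.30), Syt2 (0.49 ± 0.28) and Syt5 (-0.35 ± 0.22), and for A+T+ those of Sv2c (0.62 ± 0.30), Snap47 (-0.26 ± 0.13) and Vamp4 (0.57 ± 0.30).

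The APP/PS1 transgene was compared over both tau genotypes and both diets. No member passed in limma, against 3.69% of all genes (586). At an unadjusted p under 0.05 there were 16 members (15% of all genes), of which 3 were higher (7.65% of all genes) and 13 lower (7.3% of all genes). Of the 62 members 47 had a negative difference (75.8%, against 55.8% of all genes), and the median was -0.05, against -0.02. Rims4 ran 9.61, 9.96 and 10.53 in the 24 mice without the transgene and 9.39, 9.79 and 10.19 in the 21 with it, a difference of -0.20 ± 0.07 (adjusted p = 0.115). Snap25 ran 14.42, 14.68 and 14.90 without and 14.14, 14.61 and 14.77 with the transgene, and 19 of the 21 mice with it lay below the median of those without. Its difference was -0.11 ± 0.04 (adjusted p = 0.166). Vamp1 (-0.12 ± 0.05), Vamp2 (-0.10 ± 0.04), Syt7 (-0.12 ± 0.05), Rims3 (-0.20 ± 0.08), Syn3 (-0.20 ± 0.09), Syt2 (-0.21 ± 0.10) and Sv2b (-0.25 ± 0.12) leaned the same way. Syp (-0.02 ± 0.07) and Slc17a7 (0.02 ± 0.06) lay near 0. Syt16 differed by -0.12 ± 0.05 (adjusted p = 0.163).

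**Figure D5:**
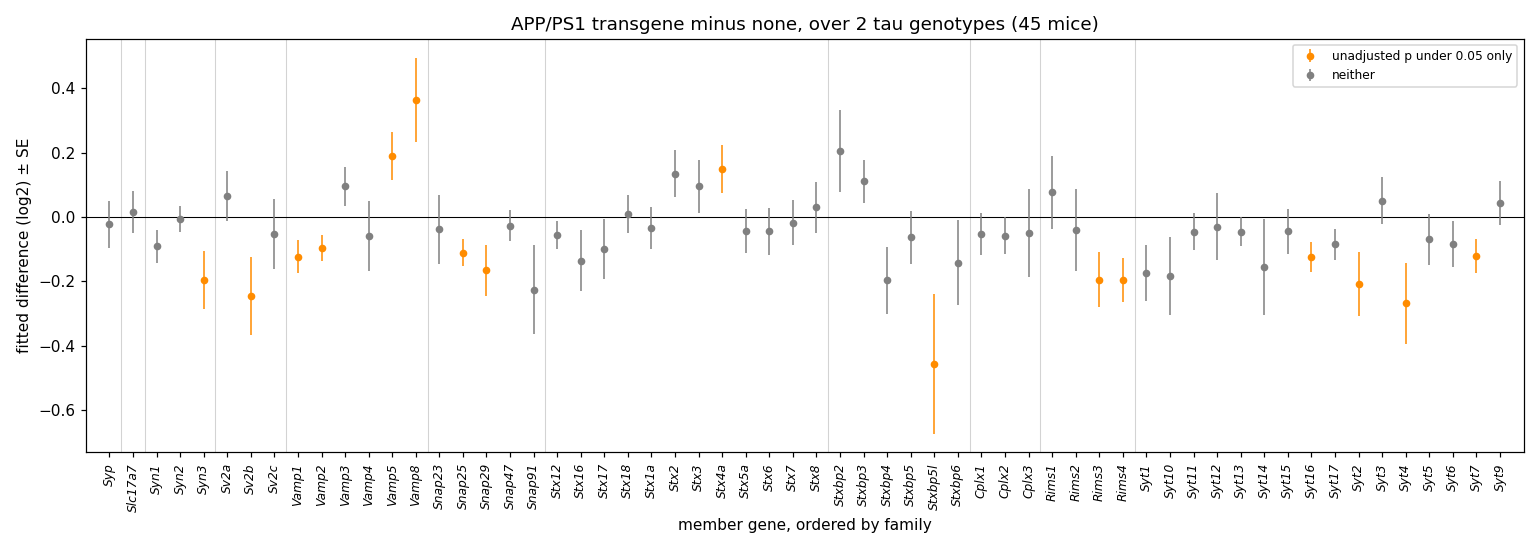
The fitted difference between mice with and without the APP/PS1 transgene (log2, ± SE, 45 mice) of 60 members, ordered by family; orange marks an unadjusted p under 0.05 and grey the rest, with none past the adjusted threshold. Most members lie below 0, among them Snap25 (-0.11) and Rims4 (-0.20), while Vamp8 (0.36) stands highest.

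Vamp8, an endosomal SNARE best known from secretory and epithelial cells, ran 6.53, 7.29 and 8.47 without the APP/PS1 transgene and 6.89, 7.67 and 8.17 with it, a difference of 0.36 ± 0.13 (adjusted p = 0.135). Its neighbour on chromosome 6, Vamp5, differed by 0.19 ± 0.07. Each shares its values exactly with another gene entry of the table, so their reads cannot be assigned with certainty. Summed choroid plexus markers (10 of 10 measured) ran 11.2, 13.3 and 18.2 without and 11.6, 16.3 and 17.7 with the transgene. None of the 10 passed, and 8 had an unadjusted p under 0.05, all higher. Microglia markers rose in 6 of 8, with summed levels of 12.32 to 13.19 (median 12.66) without and of 13.11 or more (median 13.51) with the transgene, and 1 of 4 GABA neuron markers fell. Their part in the members' differences was not tested. With the residual score as a covariate 7 members passed, as did 1082 of all 15897 genes. Rims4 (-0.24), Syt5 (-0.16), Vamp2 (-0.13), Syt7 (-0.15), Vamp1 (-0.15) and Syp (-0.11) were lower and Rims2 (0.12) was higher. With length and GC trends removed Rims4 (-0.21), Vamp2 (-0.16) and Syt5 (-0.15) passed, among 975 of all genes. Without AwTw/TWD replicate 3 the count of members past the test was 1, and that of all genes 742. In the wider list Syngr2, a synaptogyrin (0.39), and Ppfia4, a liprin (0.28), rose and Doc2b, a calcium sensor of spontaneous release (-0.23), fell. The next in p were Dnm2 (0.12), Ap2b1 (-0.11) and Nsf (-0.13), none of which passed.

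The tau transgene moved no member in limma, and 2 genes of the whole table passed (0.0126%). Only Stxbp3, a syntaxin-binding protein of many tissues, had an unadjusted p under 0.05 among the members (4.91% of all genes), at 0.14 ± 0.07. Stx16 (0.17 ± 0.09) and Vamp8 (0.22 ± 0.13) came next. In the wider list none passed. The smallest p values were those of Doc2b (-0.20), Rab3a (-0.12) and Ap2s1 (-0.15) among lower genes, and of Rab3gap1 (0.09), Slc17a6 (0.26) and Rimbp2 (0.08) among higher ones.

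Each transgenic genotype was also set against AwTw on the same diet, comparisons that share their AwTw mice. No member passed in any of the 6. AwT+ mice gave 2 members at an unadjusted p under 0.05 on STD (2.39% of all genes) and 0 on TWD (3.04%), with 0% of genes past the adjusted threshold on either diet. On STD the leading members were Stxbp3 (0.30 ± 0.13), Vamp5 (0.28 ± 0.14) and Syt12 (0.37 ± 0.19), and on TWD Syt3 (-0.24 ± 0.14), Slc17a7 (-0.22 ± 0.12) and Stx16 (0.31 ± 0.18). In A+Tw mice 1 member reached the unadjusted level on STD (5.66% of all genes) and 1 on TWD (5.2%), where 0.925% and 0.824% of genes passed after adjustment. The STD member was Syt2: 8.19 to 9.50 with a median of 9.16 in 6 AwTw mice, and 8.27, 8.31, 8.38, 8.50 and 9.03 in 5 A+Tw mice (-0.52 ± 0.20, adjusted p = 0.579). These ranges overlap. Stxbp3 (0.23 ± 0.14) and Snap29 (-0.26 ± 0.16) followed. On TWD the leading members were Vamp3 (0.26 ± 0.12), Vamp1 (-0.19 ± 0.10) and Rims4 (-0.25 ± 0.13).

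In A+T+ mice 4 members reached the unadjusted level on STD (14.3% of all genes) and 5 on TWD (7.76%), where 1.32% and 0.73% of genes passed after adjustment. On STD Vamp5 was 5.82, 5.92, 5.96 and 5.98 in the 4 A+T+ mice, above all 6 AwTw mice, which ran 5.06, 5.42 and 5.76 (0.50 ± 0.16, adjusted p = 0.12). Vamp8 was 7.63, 7.69, 7.87 and 8.09, overlapping AwTw at 6.53, 6.82 and 7.82 (0.82 ± 0.28, adjusted p = 0.179). Both genes were low in these mice, below 8.21, the median of the mean values of all genes. Each shares its values with another gene entry, as stated above. Choroid plexus markers ran 11.7, 12.7 and 16.9 in these AwTw mice and 16.3, 16.9 and 17.4 in these A+T+ mice, and their part was not tested. Syt4 was 9.57, 9.86, 10.06 and 10.30 in A+T+ and 10.15, 10.60 and 10.90 in AwTw mice (-0.61 ± 0.27, adjusted p = 0.298). On TWD Vamp1 (-0.29 ± 0.10), Snap47 (-0.22 ± 0.09) and Syt5 (-0.33 ± 0.15) led. Leaving out AwTw/STD replicate 2 gave 2 members past the test on STD, among 278 of all genes.

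Within groups many members varied jointly from mouse to mouse, some in the same direction and others in opposite directions. After group and batch were fitted, the 1891 pairs of members had a median absolute Pearson r of 0.39, with 390 pairs above 0.5 and 298 below -0.5 over 45 mice. The same figures were not computed for pairs of all genes, whose largest residual component held 41.3% of the variation left over. Joint variation is therefore not shown to be particular to the members. The members most like Syp were Syt3 (r = 0.94, Spearman rho = 0.92), Snap47 (r = 0.90, rho = 0.89) and Slc17a7 (r = 0.90, rho = 0.91). Those most like Slc17a7 were Syp (r = 0.90, rho = 0.91), Syt3 (r = 0.87, rho = 0.85) and Snap47 (r = 0.86, rho = 0.86). At the other end stood Stxbp4 (r = -0.93, rho = -0.94), Syt14 (r = -0.89, rho = -0.86) and Rims2 (r = -0.87, rho = -0.87) for Syp. All genes of a mouse share 1 library, so these values describe the libraries together with the tissue.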

How the data were processed

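After trimming (Trimmomatic 0.38) and depletion of ribosomal and mitochondrial reads (Bowtie2 2.2.3), the authors quantified transcripts with kallisto 0.44.0 (build mm10, per the submitters' processing notes) and summed them per gene. The deposited log2-scale values are the authors' variance-stabilised counts from DESeq2 1.22.2 for genes of sufficient mean count, with batch removed by limma 3.38.3. Depth per mouse is unknown, so precision comes from the spread between mice. Symbols and transcript lengths follow GENCODE M21 (GRCm38), and promoters RefSeq.

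All 15897 genes were fitted with limma 3.58.1 in R 4.3.3 (empirical Bayes with a mean trend, two-sided, batch as a covariate). A fit of the 8 groups gave contrasts within genotype, within diet and the interactions, and an additive fit gave the diet and transgene effects. The residual score applies the loadings of the first residual component to each mouse's centred values, so it can itself carry a diet difference. Summed marker levels are the log2 of the sum of 2 to the power of each value. Members and lists were chosen with earlier results of these data known. Genes named are a fixed core panel of 23, up to 10 risers and fallers with the largest differences for diet, the 3 smallest p values where none passed. In comparisons where these rules did not pick them, Snap29, Syt16, Rims4, Vamp5 and other members were named after their values were seen. A few members are counted but not reported by name here. The fits were tested on simulated data with independent noise for each gene, so that test does not cover the residual component shared between genes. Alternatives covered batch, normalization, low values, score, labels, thresholds, single mice, and, chosen after seeing the data, a length and GC correction and leaving out AwTw mice.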

Additional observations from a re-analysis of the deposited data

Results flagged for a closer look

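In 32 named members each of the 8 groups was searched for a mouse far from the others of its group, 256 searches in all, of which chance marks about 1 in 20. There were 12 such values, in 9 mice. A+Tw/TWD replicate 3 was lowest of 6 in 3 genes: Snap25 (14.14), Cplx1 (12.89) and Cplx2 (14.26). A+T+/TWD replicate 1 was lowest of 6 in Stxbp4 (7.05) and Syt4 (8.73). Single low values were Rims1 in AwTw/STD replicate 2 (9.59), Sv2a in AwT+/STD replicate 3 (12.13), Sv2c in A+Tw/TWD replicate 2 (8.06), Syn1 in A+T+/TWD replicate 2 (13.27) and Stxbp6 in A+T+/STD replicate 2, lowest of 4 (9.61). Single high values were Cplx1 in AwTw/STD replicate 6 (13.68) and Sv2c in A+Tw/STD replicate 1, highest of 5 (9.60).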

How the results depend on the processing

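The count of 23 members that moved with the diet over all genotypes fell to 0 in batch 0 alone, with the residual score as a covariate, without the AwTw mice and at an adjusted p of 0.01, and to 11 with length and GC trends removed. It was 12 to 29 with single mice left out. Quantile normalization gave 6 higher and 12 lower, with 4836 of all genes called. As tested, 4678 of all 15897 genes passed. No gene passed in batch 0 alone, with the score or without the AwTw mice. At an adjusted p of 0.01 there was 1 gene, and 2134 with length and GC trends removed. Of the 23, Syt14 (0.036), Syt4 (0.0097) and Snap29 (0.010) turned with the score, and Vamp2 (-0.013) and Syt16 (0.099) with length and GC trends removed. The 6 members that moved in AwTw mice became 0 in batch 0 alone, under quantile normalization, without a mean trend, with the label prefix or the score as a covariate, with only the groups compared, with length and GC trends removed and at an adjusted p of 0.01. They became 13 without a batch covariate, 17 in batch 1 alone, 16 among genes above the 25th percentile and 23 at an adjusted p of 0.10, and 0 to 25 with single mice left out. Over all genes 1487 passed as tested. No gene passed in the settings that gave 0 members, except 1 with only the groups compared. Without a batch covariate 2490 genes passed, in batch 1 alone 3982, above the 25th percentile 2853 and at an adjusted p of 0.10 5563. In batch 0 alone Stx4a (-0.14) and Sv2a (-0.011) turned in AwTw mice. For APP/PS1 the count of 0 members became 1 under quantile normalization, 7 with the score, 3 with length and GC trends removed and 0 to 1 with single mice left out. Over all genes 586 passed as tested, 552 under quantile normalization, 1082 with the score and 975 with length and GC trends removed. For A+T+ against AwTw on STD the count of members was 0 to 2 with single mice left out. Member counts of the other comparisons were 0 throughout. Where no value bears on it, the cause was not tested. Depth per mouse is unknown, so its part in these values was not tested. No paired analysis was possible because replicate numbers only name mice.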
